A study of Mus musculus with 2 samples.

Results

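Arterial endothelial cells were examined in single-cell RNA sequencing of the postischemic mouse kidney, as the barcodes with transcripts of *Sox17*, *Gja4* or *Gja5*. *Sox17* encodes a transcription factor of arterial identity, and *Gja4* and *Gja5* encode connexin 37 and connexin 40, gap junction proteins of arterial endothelium. A barcode was a member when it held at least 2 unique molecular identifiers (UMIs, each standing for 1 captured transcript) of *Cdh5*, *Pecam1* and *Egfl7* together and at least 2 of *Sox17*, *Gja4* and *Gja5* together. It also had at most 1 UMI of *Plvap*, none of *Slc14a1*, at most 2 of *Rgs5* and *Pdgfrb* together and none of *Ptprc*. These limits were set against fenestrated capillary, descending vasa recta, mural and immune cells, but they cannot keep out all such cells. Of 17701 barcodes that passed the filters, 196 were members. The *Cre-* library held 89 of 8468 (1.05%, exact 95% interval 0.845 to 1.29) and the library labelled *PHDTiEC* 107 of 9233 (1.16%, 0.951 to 1.40). Of these members, 27 and 33 held 1 *Plvap* UMI. The members were chosen on the measured genes of the rule, so the levels of those genes are a description.

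Arteries and arterioles are lined by endothelial cells that depend on Notch signalling and on SOX17, are joined by connexins and rest on elastic matrix. In the kidney they lead from the renal artery to the glomerular arterioles, upstream of the fenestrated capillaries that take part in exchange with the tubules. Prolyl hydroxylases PHD1, PHD2 and PHD3 use oxygen to mark hypoxia-inducible factors (HIF) for degradation. When they are inactive, HIF accumulates and induces genes of glycolysis, angiogenesis and hypoxic adaptation, among them *Egln3*, which encodes PHD3 itself.

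Each genotype was represented by 1 library from 1 mouse, the animals were littermates, and mice of this study were operated on at 8 to 10 weeks of age. The mouse labelled *PHDTiEC* carried Cdh5-CreERT2, a tamoxifen-inducible recombinase driven by the endothelial *Cdh5* promoter, with floxed Phd1, Phd2 and Phd3, and the control mouse lacked Cre. Both had 25 minutes of clamping of 1 renal artery, then 4 doses of tamoxifen of 3 mg each starting on the following day, and the injured kidney was dissociated on day 14. With 1 mouse per genotype no difference has a replicate check, so no test was made and every interval covers counting error only. Genotype, mouse, dissociation and library cannot be told apart, and all differences below are between the library labelled *PHDTiEC* and the *Cre-* library.

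The libraries held 136004367 and 146758812 UMIs, and 27 of the barcodes that passed the filters occurred in both, none of them a member. Summed over members, 842610 UMIs came from the control and 1054548 from the other library, with a median of 5282 and 7065 UMIs per barcode. The median mitochondrial share of a member was 4.44% and 3.15%. The deepest member supplied 9.15% and 3.99% of the members' UMIs. Members were 16.2% of the 548 barcodes in the *Cre-* library with at least 2 UMIs of the endothelial genes of the rule, and 14.7% of 730 in the other library.

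*Sox17* was detected in 80 of the 89 *Cre-* members and 93 of the 107 members in the library labelled *PHDTiEC*. *Gja4* was detected in 63 and 81 and *Gja5*, which is restricted to larger arteries and arterioles, in 11 and 26. All 3 genes were seen in 9 and 16 members, and 33 and 30 members were chosen on 1 of them alone. Levels are given as CPM, a gene's UMIs per 1000000 UMIs of all members of a library. *Sox17* stood at 650 and 547 CPM, *Gja4* at 281 and 321 CPM and *Gja5* at 30.9 and 41.7 CPM. At the edge of the rule, 11 and 16 members had exactly 2 UMIs of the 3 genes, with medians of 3497 and 3326 UMIs, and 9 and 17 barcodes just outside had 1 UMI, with medians of 1367 and 3836 UMIs.

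Many arterial genes that the rule did not use were higher in members than in *Plvap* capillary cells. That comparison cannot separate arterial from other endothelial cells low in *Plvap*. The members were compared within each library with 75 *Cre-* and 128 *PHDTiEC*-labelled capillary barcodes, which had at least 2 *Plvap* UMIs and at most 1 UMI of *Sox17*, *Gja4* and *Gja5*. Across 7543 genes, 2.98% were at least 2-fold higher in members in both libraries and 2.57% at least 2-fold lower in both. Of 27 measured genes on the arterial and Notch list, 13 were at least 2-fold higher in both libraries and 0 lower. Of 9 genes on the capillary list, 5 were lower in both and 0 higher.

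*Fbln5*, which encodes the elastic fibre protein fibulin-5, stood at 584 CPM in *Cre-* members against 25.7 CPM in *Cre-* capillary cells, and at 592 against 7.17 CPM in the other library. *Bmx*, a tyrosine kinase gene of arterial endothelium, had 104 and 124 CPM in members and no UMI in the capillary cells of either library, which places it at least 3.90 and 5.34 higher on the log2 scale. *Mgp*, an inhibitor of vascular calcification, was 2.36 and 3.57 higher in members on that scale, and *Edn1*, which encodes endothelin-1, was 3.76 and 3.52 higher. The Notch ligand gene *Jag1* was 4.60 and 3.22 higher and *Jag2* 2.80 and 4.07 higher. *Efnb2*, which encodes the arterial marker ephrin-B2, was 0.92 and 1.65 higher, and *Jam2*, a junctional adhesion gene, 1.35 and 1.78 higher. All of these genes were above the capillary level in both libraries.

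The capillary apelin receptor gene *Aplnr* had no UMI in any member, against 273 and 112 CPM in the capillary cells. *Rgcc*, a cell cycle regulator gene abundant in capillary endothelium, stood at 5.93 and 13.3 CPM in members against 627 and 574 CPM. The genes with the largest excess in members of both libraries also included *Stmn2*, which encodes a microtubule-destabilizing protein. It stood at 421 and 263 CPM in members against no UMI and 3.07 CPM in capillary cells. *S100a4*, a calcium-binding protein gene on the vasa recta list, had 965 and 767 CPM against 63.0 and 21.5 CPM. *Ace*, which encodes angiotensin-converting enzyme, had 52.2 and 51.2 CPM against 2.33 CPM and no UMI. Among the genes lowest in members, *Kcnj8* and *Aplnr* had no UMI in members of either library, and the selectin gene *Selp* had 1 and 7 UMIs.

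**Figure D1:**
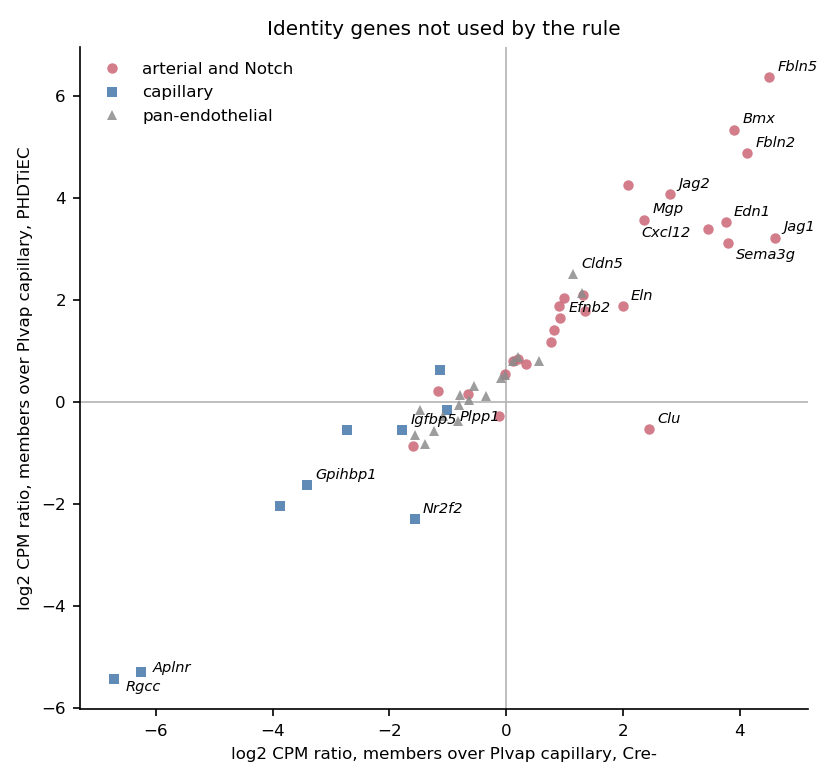
Each point is 1 gene of the arterial and Notch, capillary or pan-endothelial list. The axes give the log2 CPM ratio of members over *Plvap* capillary cells with the *Cre-* library on the horizontal and the library labelled *PHDTiEC* on the vertical axis. *Fbln5*, *Bmx*, *Fbln2* and *Jag1* lie above 3 on both axes, *Rgcc* and *Aplnr* below -5 on both, and *Clu* is higher in members of the *Cre-* library alone.

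Genes of other vessel segments were present as well. On a list of 8 vasa recta genes, 5 were at least 2-fold higher in members than in capillary cells in both libraries, and on a glomerular endothelial list 7 of 8 were. The summed log2 ratios of members over capillary cells were 2.14 and 1.91 for the vasa recta list and 1.80 and 2.96 for the glomerular list. The arterial and Notch list had 1.48 and 1.08, so this excess was not particular to arterial genes. These lists share vessels with the arterial tree in part: *Pi16* and *Dkk2*, on the glomerular list, stood at 452 and 256 CPM in *Cre-* members and 399 and 214 CPM in the others. The vasa recta list took the same part of the members' UMIs in both libraries, 0.444% and 0.442%. The capillary list took 0.113% of UMIs in *Cre-* members and 0.233% in the others, and the glomerular list 0.140% and 0.200%. *Ehd3*, a marker of glomerular capillary endothelium, was seen in 8 and 20 members. Both sums were higher in the *PHDTiEC*-labelled members.

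Transcripts of non-endothelial cells also differed between the libraries. The 15 tubule markers took 1.27% of the UMIs of *Cre-* members and 0.673% of those of the other members, but their median per member was 0.0817% and 0.0494%, so few barcodes carried most of them. *Spp1* supplied 8120 and 5691 of these UMIs, and *Atp6v1g3*, a gene of intercalated cells, 430 and 34. Mural and fibroblast markers summed to 399 and 90 UMIs, with 35.8% of the *Cre-* UMIs in 1 barcode, and *Rgs5* and *Pdgfrb* had been held low by the rule. Red cell markers had 1 and 213 UMIs, 96.2% of the latter in 1 barcode. The immune markers took 0.0437% and 0.0508%, with 53.5% of the latter in 1 barcode. In all, 14 and 9 members had over 1% of their UMIs from tubule and immune markers, and the part of these transcripts in the results below was not tested beyond the leave-outs given.

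The floxed genes were examined first. *Egln1*, which encodes PHD2 (chromosome 8 of GRCm38, 124908587 to 124949324), had 59 UMIs or 70.0 CPM in *Cre-* members and 161 UMIs or 153 CPM in the library labelled *PHDTiEC*, a log2 ratio of 1.12 (0.69 to 1.58). *Egln3* (chromosome 12, 54178981 to 54203860) had 6 UMIs in 6 members of the *Cre-* library and 95 UMIs in 33 members of the other, or 7.12 and 90.1 CPM. The log2 ratio of *Egln3* was 3.66 (2.49 to 5.14), and 23.2% of the larger count came from 1 barcode. *Egln2*, which encodes PHD1 (chromosome 7, 27158658 to 27166802), had 34 and 37 UMIs, 40.4 and 35.1 CPM, and a log2 ratio of -0.20 with an interval of -0.91 to 0.51 that holds 0. Counts at the 3′ end of a transcript do not tell whether a floxed exon is present, so these values do not check the deletion, and no floxed gene had an interval wholly below 0.

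*Egln3* had a different level in the capillary cells. There it stood at 56.0 and 63.5 CPM, a log2 ratio of 0.18 (-0.52 to 0.93). *Cre-* members had less of it than *Cre-* capillary cells. The *PHDTiEC*-labelled members stood above the capillary cells of their library, by 0.50 on the log2 scale (0.03 to 0.99). In immune barcodes, which were chosen to hold *Ptprc* and no UMI of *Cdh5*, *Pecam1* or *Egfl7*, *Egln3* had 5.39 and 5.02 CPM. After each barcode was thinned at random to 2000 UMIs, *Egln3* was seen in 0 of 81 *Cre-* members (upper bound 4.45%) and in 10.9% of 101 members of the other library (5.56 to 18.7). The share in thinned immune barcodes was 1.33% and 2.33% of 300. Without thinning the shares of members were 6.74% and 30.8%. Of the HIF subunit genes, *Epas1*, which encodes HIF-2α, stood at 590 and 637 CPM in members (log2 ratio 0.11, -0.06 to 0.28) and *Hif1a* at 108 and 124 CPM (0.20, -0.19 to 0.60). The β-subunit gene *Arnt* had 16 and 31 UMIs (0.63, with an interval that holds 0), and *Arnt2* had 19 and 6 UMIs (-1.99, -3.60 to -0.61), with 73.7% of the *Cre-* UMIs in 1 barcode.

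Across the 8868 genes with at least 20 UMIs in the members of both libraries together, 3.96% were at least 2-fold higher in the library labelled *PHDTiEC* and 2.68% at least 2-fold lower. The median log2 ratio over these genes was 0.02. Scaling by TMM or by median ratios moved the member totals by less than 1% and changed none of the directions given here for the HIF target and glycolysis lists.

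HIF target genes were higher in the members of the library labelled *PHDTiEC*. Of 27 measured targets, 11 were at least 2-fold higher and 1 was at least 2-fold lower, with a median log2 ratio of 0.79. Together they took 0.160% of the UMIs of *Cre-* members and 0.253% of the others, a log2 ratio of 0.66 (0.57 to 0.76). The same genes took 0.111% and 0.217% in the capillary cells (log2 ratio 0.97) and 0.128% and 0.121% in the immune barcodes (-0.08). The counting interval lay above 0 for 17 of the 27 genes and below 0 for 2, against 7.71% and 5.8% of all genes tested.

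*Bnip3*, a mitophagy receptor gene, had 30 UMIs in 17 *Cre-* members and 208 UMIs in 45 members of the other library, or 35.6 and 197 CPM and a log2 ratio of 2.47 (1.91 to 3.07). In the capillary cells it stood at 49.0 and 140 CPM, and in immune barcodes at 32.6 and 32.7 CPM. *Ankrd37*, a direct HIF target that encodes an ankyrin repeat protein, had 6 and 74 UMIs and a log2 ratio of 3.30 (2.11 to 4.79). *Adm*, which encodes the vasodilator peptide adrenomedullin, had 5 UMIs in 5 members against 56 UMIs in 24 members and a log2 ratio of 3.16 (1.85 to 4.84). *Vegfa*, the main angiogenic growth factor gene, had 48 and 165 UMIs, 57.0 and 156 CPM, and a log2 ratio of 1.46 (0.99 to 1.95). These 4 genes were also higher in the capillary cells of the same library, by 1.52, 2.36, 1.70 and 1.00 on the log2 scale.

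Genes of collagen modification were among the targets with 2-fold differences. *P4ha1*, which encodes a collagen prolyl 4-hydroxylase subunit, had 17 and 63 UMIs (log2 ratio 1.57, 0.78 to 2.43), and *Plod2*, a collagen lysyl hydroxylase gene, 21 and 66 UMIs (1.33, 0.60 to 2.11). *Hilpda*, a lipid droplet gene, had 17 and 49 UMIs (1.20, 0.38 to 2.09), and *Hmox1*, which encodes heme oxygenase 1, had 8 and 37 UMIs (1.89, 0.76 to 3.20). Their intervals all lay above 0.

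A pair of targets rested on 1 to 3 UMIs in the *Cre-* members. *Ndufa4l2*, which encodes a mitochondrial protein induced by HIF, had 1 and 38 UMIs, a log2 ratio of 4.92 with a wide interval of 2.36 to 10.3. *Pgf*, which encodes placental growth factor, had 3 and 73 UMIs (4.28, 2.68 to 6.59), and 41.1% of the larger count came from 1 barcode. *Car12*, a carbonic anhydrase gene, went the other way with 63 and 15 UMIs, and 50.8% of its *Cre-* UMIs came from 1 barcode. With members over 1% tubule and immune markers left out, its log2 ratio turned from -2.39 to 0.91. *Bhlhe40*, a transcriptional repressor gene, stood at 316 and 212 CPM (-0.57, -0.83 to -0.31), and *Pdk1*, which restrains pyruvate entry into mitochondria, at 42.7 and 33.2 CPM (-0.36, -1.08 to 0.35).

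**Figure D2:**
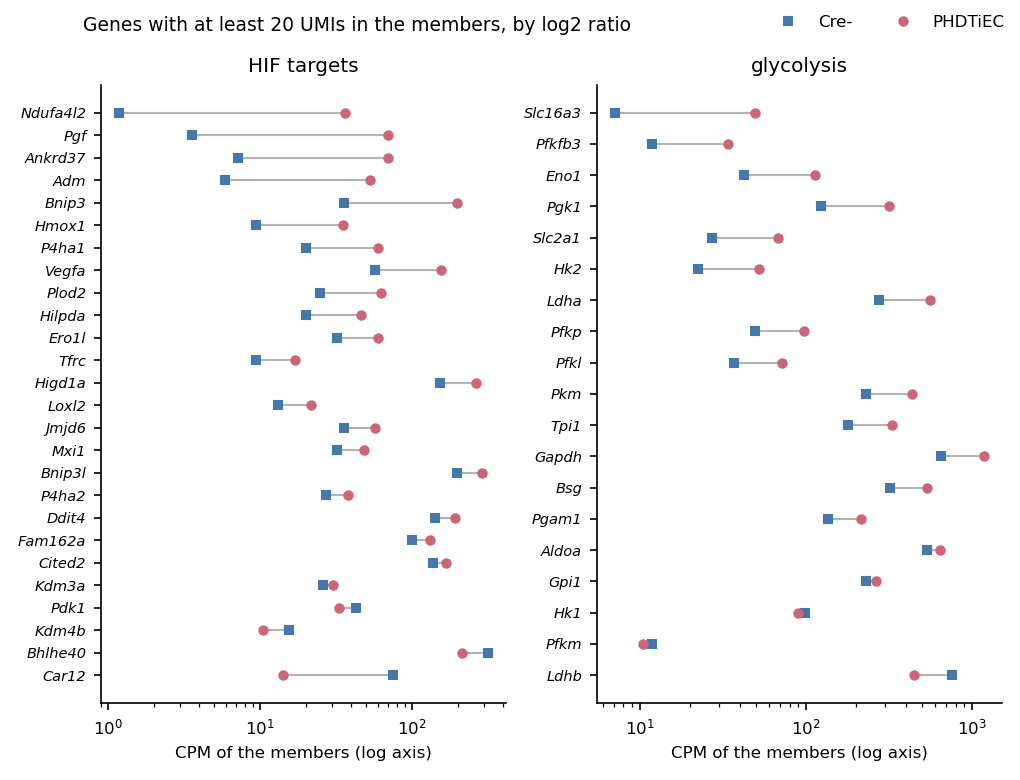
Each row is 1 gene of the HIF target list (left) or the glycolysis list (right) with at least 20 UMIs in the members. Squares give the CPM of the *Cre-* members and circles that of the members of the library labelled *PHDTiEC*, on log axes. Circles lie to the right of squares for 22 of the 26 HIF targets drawn and 16 of 19 glycolysis genes.

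Promoter sequence is shown for 4 of the genes with the largest differences, because the core letters of the hypoxia response element, ACGTG and GCGTG, can be read directly in it. Each line gives the 250 bases before the RefSeq gene start on GRCm38.p6, written 5′ to 3′ on the gene's strand, with capitals where these letters or their reverse complement occur. *Bnip3* lies at chr7:138909507-138909756 on the minus strand, *Ankrd37* at chr8:45999851-46000100 on the minus strand, *Slc16a3* at chr11:120948817-120949066 on the plus strand and *Egln3* at chr12:54203875-54204124 on the minus strand.
Bnip3: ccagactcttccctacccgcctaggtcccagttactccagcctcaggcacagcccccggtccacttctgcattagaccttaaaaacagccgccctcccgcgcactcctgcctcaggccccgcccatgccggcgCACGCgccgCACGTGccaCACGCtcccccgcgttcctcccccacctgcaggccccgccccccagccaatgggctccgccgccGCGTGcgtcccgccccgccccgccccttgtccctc
Ankrd37: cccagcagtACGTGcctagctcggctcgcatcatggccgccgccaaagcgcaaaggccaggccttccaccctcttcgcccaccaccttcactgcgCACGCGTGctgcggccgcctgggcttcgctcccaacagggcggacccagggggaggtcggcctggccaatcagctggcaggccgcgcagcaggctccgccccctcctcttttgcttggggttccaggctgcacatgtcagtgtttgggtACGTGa
Slc16a3: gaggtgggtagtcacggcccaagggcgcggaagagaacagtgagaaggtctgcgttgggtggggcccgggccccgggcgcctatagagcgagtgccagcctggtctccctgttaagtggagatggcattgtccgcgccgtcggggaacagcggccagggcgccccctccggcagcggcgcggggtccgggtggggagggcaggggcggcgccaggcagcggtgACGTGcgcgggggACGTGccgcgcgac
Egln3: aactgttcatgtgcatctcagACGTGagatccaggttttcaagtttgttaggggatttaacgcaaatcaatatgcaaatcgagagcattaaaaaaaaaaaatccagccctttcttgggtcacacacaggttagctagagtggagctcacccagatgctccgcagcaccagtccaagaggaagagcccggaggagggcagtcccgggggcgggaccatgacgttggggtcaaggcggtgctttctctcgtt
Both letter strings were searched on both strands, and where they overlapped or formed a palindrome each strand was counted. The windows then held 5 matches for *Bnip3*, 4 for *Ankrd37*, 2 for *Slc16a3* and 1 for *Egln3*. All 4 genes shown thus hold a match. In windows not shown, *AA467197* had 4, *Selenbp1* 3, *Adm* 2, *Trp53i11* and *Fscn1* 1 each, and *F8* 0. *Vegfa* had 0 at chr17:46032378-46032627 and 2 at chr17:46025164-46025413. At least 1 match was present in 38.6% of all 32851 such windows, in 57.5% of those of the genes measured here and in 54.4% of those of the genes at least 2-fold higher. For measured HIF target and glycolysis genes it was 75% of 56 windows. A match describes the letters alone.

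Glycolysis genes were higher in the same members. Of 19 measured genes, 7 were at least 2-fold higher and 0 were 2-fold lower, with a median log2 ratio of 0.92, against the 3.96% and 2.68% over all genes. Their UMIs summed to 0.379% and 0.555% of the members' total, a log2 ratio of 0.55 (0.49 to 0.61), beside 0.42 in capillary cells and -0.15 in immune barcodes. *Pgk1*, which encodes phosphoglycerate kinase 1, had 104 and 335 UMIs, or 123 and 318 CPM (log2 ratio 1.36, 1.04 to 1.70). *Ldha*, the lactate dehydrogenase subunit that favours lactate formation, had 234 and 593 UMIs, or 278 and 562 CPM (1.02, 0.80 to 1.24). *Gapdh* stood at 650 and 1180 CPM (0.86, 0.71 to 1.01) and *Eno1*, which shares reads with the copy *Eno1b* and is therefore uncertain, at 42.7 and 114 CPM (1.41).

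The transporters of the pathway followed the enzymes. *Slc2a1*, which encodes the glucose transporter GLUT1, had 23 UMIs in 14 *Cre-* members and 72 UMIs in 31 members of the other library (log2 ratio 1.32, 0.63 to 2.07). *Slc16a3*, which encodes the lactate exporter MCT4, had 6 UMIs in 5 members and 52 UMIs in 23 members (2.79, 1.57 to 4.30), and in the capillary cells it was higher by 3.02. *Bsg*, which encodes the chaperone basigin of that transporter, stood at 320 and 538 CPM (0.75, 0.54 to 0.96). *Hk2*, a hexokinase gene, had 19 and 55 UMIs (1.21) and *Pfkfb3*, which encodes a producer of the phosphofructokinase activator fructose 2,6-bisphosphate, 10 and 36 UMIs (1.52). *Aldoa*, *Gpi1*, *Hk1* and *Pfkm* differed by 0.25 or less on the log2 scale. *Ldhb*, the subunit that favours pyruvate, stood at 764 and 450 CPM (-0.76, -0.94 to -0.59), with 31.8% of its *Cre-* UMIs in 1 barcode.

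Both lists were recomputed without barcodes that carried other cells' markers. When members with over 1% of their UMIs from tubule and immune markers were left out (75 and 98 stayed), the log2 ratio was 1.02 for HIF targets and 1.23 for glycolysis. When members with any UMI of *Ehd3*, *Gpihbp1* or *Cd300lg* were left out (69 and 72 stayed), it was 0.47 and 0.30. Members with other capillary transcripts stayed, and the capillary list had a log2 ratio of 0.53 there. The second leave-out was chosen after the values had been seen. The direction was the same, and the size varied with the barcodes included.

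**Figure D3:**
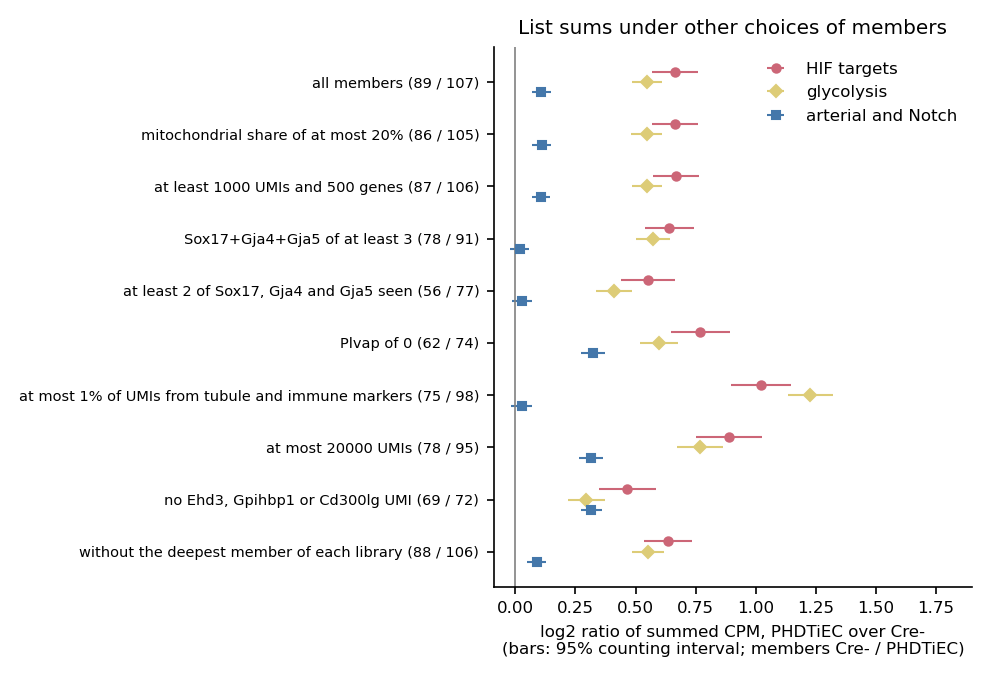
Points give the log2 ratio of summed UMIs of HIF target, glycolysis and arterial genes, library labelled *PHDTiEC* over *Cre-*, for all members and under each other choice of members, with 95% counting intervals and the numbers of members in brackets. HIF targets lie between 0.47 and 1.02, glycolysis between 0.30 and 1.23 and arterial genes between 0.018 and 0.32.

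Members differed widely among themselves. With each barcode thinned to 2000 UMIs, a *Cre-* member held a median of 2 HIF target UMIs (lowest 0, highest 9, 81 members, 8 shallower ones left out). A member of the library labelled *PHDTiEC* held a median of 4 (lowest 0, highest 31, 101 members, 6 left out), and 14 of them lay above the highest *Cre-* member. Members of both libraries overlapped between 0 and 9. The *PHDTiEC*-labelled members with 31, 25, 18 and 16 had mitochondrial shares of 0.345%, 0.213%, 0.169% and 0.623%, below that library's median of 3.15%. Members there with 11 reached 4.35%, and a *Cre-* member at 0.119% had 0. For glycolysis the member with 60 UMIs had a share of 0.213% and the one with 39 had 2.01%. The part of such barcodes in the sums was not tested. For glycolysis the medians were equal at 5 UMIs, while the upper quartile was 8 and 11 and the highest member 22 and 60, so the sum differed through its upper part. Capillary cells had a median of 2 HIF target UMIs in both libraries, with the highest at 8 and 34. In thinned immune barcodes the median was 2 in both and the highest 12 in both. Arterial and Notch genes gave a median of 17 UMIs (lowest 4, highest 69) in *Cre-* members and 23 (lowest 1, highest 111) in the others.

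**Figure D4:**
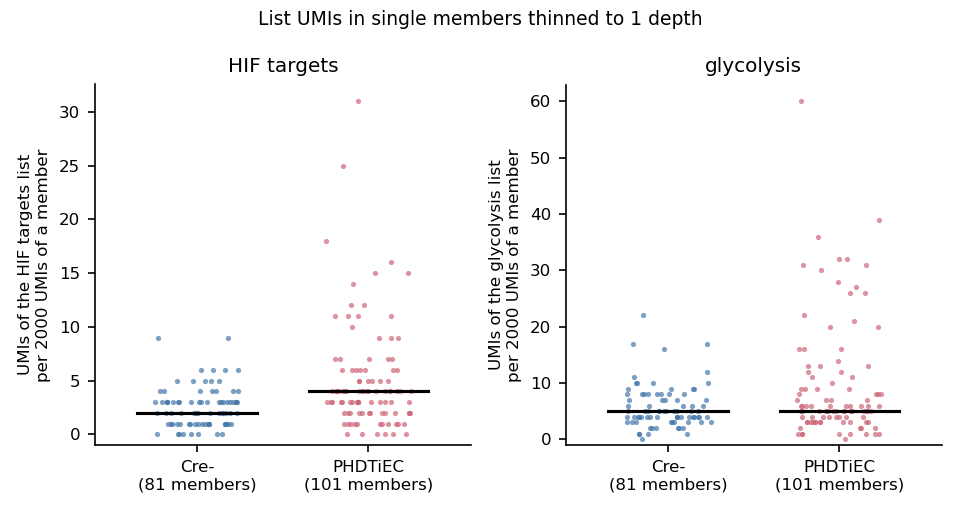
Each point is 1 member barcode thinned to 2000 UMIs, and the vertical axis gives its UMIs of the HIF target list (left) or glycolysis list (right) by library, with a line at the median. The medians are 2 and 4 for HIF targets and 5 and 5 for glycolysis, and the highest points belong to the library labelled *PHDTiEC*. Barcodes of 1 library are not replicates.

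Within the library labelled *PHDTiEC*, members with and without an *Egln3* UMI were set side by side as a description. The 33 members with *Egln3* were deeper, with a median of 9356 UMIs against 5783 in the 74 others, which alone makes a UMI of any gene more likely to be seen. HIF targets took 0.357% of their UMIs against 0.175%, and glycolysis genes 0.792% against 0.374%. *Bnip3* stood at 356 and 76.8 CPM, *Slc16a3* at 92.3 and 16.7 CPM and *Igfbp3*, an insulin-like growth factor binding protein gene, at 1500 and 264 CPM. The arterial and Notch list took 1.00% against 1.39%. Among arterial genes, *Mgp* stood at 813 against 3172 CPM, *Ltbp4*, which encodes a binding protein of latent TGF-β, at 198 against 447 CPM and *Efnb2* at 160 against 307 CPM, while *Jam2* went the other way at 398 against 362 CPM. *Gja5* and *Gja4*, which the membership rule used, had 13.2 against 63.4 CPM and 176 against 432 CPM. The subsets also differed in other transcripts. The capillary list took 0.280% against 0.197%, the glomerular list 0.154% against 0.234%, tubule markers 0.535% against 0.777% and immune markers 0.0885% against 0.0222%. The part of this mix in the arterial values was not tested.

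A split by *Gja5*, which the rule used, is likewise a description. Among 11 *Cre-* and 26 *PHDTiEC*-labelled members with *Gja5*, HIF targets took 0.143% and 0.178% (log2 ratio 0.32, 0.07 to 0.58). Among the 78 and 81 members without it, they took 0.163% and 0.279% (0.78, 0.67 to 0.88). Members with *Gja5* had 1 and 4 *Egln3* UMIs, 3 and 15 *Bnip3* UMIs and 0 and 5 *Adm* UMIs. Glycolysis genes had log2 ratios of 0.70 and 0.60 in members with and without *Gja5*. The arterial and Notch list had -0.31 and 0.15, and the adhesion and chemokine list -0.29 (-0.47 to -0.10) and 0.64 (0.55 to 0.73). Tubule markers took 0.0425% and 0.541% of the UMIs of members with *Gja5* (log2 ratio 3.67) and 1.48% and 0.718% of those without it (-1.04), and their part in these ratios was not tested. A split by *Igfbp3*, a capillary list gene, gave HIF target ratios of 0.87 where it was seen and 0.49 where it was not. The difference between such subsets was not tested.

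The summed arterial program differed little between the libraries, while single genes went both ways. Of 29 measured arterial and Notch genes, 2 were at least 2-fold higher in the library labelled *PHDTiEC* and 0 were 2-fold lower. Over all genes these shares were 3.96% and 2.68%. The median log2 ratio was 0.20. The counting interval lay above 0 for 9 of the 29 genes and below 0 for 5, against 7.71% and 5.8% of all genes. Their sum was 1.13% of the UMIs of *Cre-* members and 1.22% of the others, a log2 ratio of 0.11 (0.07 to 0.15). It turned to -0.17 when free RNA, estimated from barcodes under 100 UMIs, was subtracted. That subtraction was scaled to take all tubule marker UMIs of the members as free RNA. Few barcodes carried most of those UMIs, so it may remove too much. *Mgp* stood at 1937 and 2154 CPM (0.15), *Fbln5* at 584 and 592 CPM (0.02), *Sema3g* at 323 and 321 CPM (-0.01) and *Dll4*, an arterial Notch ligand gene, at 94.9 and 87.2 CPM (-0.12). *Notch1* was at 159 and 224 CPM (0.49, 0.18 to 0.81) and *Efnb2* at 190 and 244 CPM (0.36, 0.07 to 0.65). *Jag1* was at 227 and 162 CPM (-0.48, -0.79 to -0.18), *Ebf1*, a transcription factor gene, at 504 and 388 CPM (-0.38) and *Jam2* at 481 and 377 CPM (-0.35). The 2 genes past 2-fold were *Cxcl12* and *Gkn3*, the latter with 11 and 28 UMIs and 50% of the larger count in 1 barcode.

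*Cxcl12*, which encodes the chemokine ligand of CXCR4, had 65 UMIs in 28 *Cre-* members and 249 UMIs in 58 members of the other library. These are 77.1 and 236 CPM and a log2 ratio of 1.61 (1.21 to 2.03). It had 0 UMIs and 22.5 CPM in capillary cells and 1.58 and 2.52 CPM in immune barcodes. In barcodes thinned to 2000 UMIs it was seen in 21.0% of *Cre-* members (12.7 to 31.5) and 24.8% of the others (16.7 to 34.3), and in 0 of 300 immune barcodes of each library (upper bound 1.22%). Unthinned, the shares of members were 31.5% and 54.2%. The thinned shares overlapped in their intervals, while the summed level differed by 1.61 on the log2 scale, and 22.9% of the UMIs in the higher library came from 1 barcode. *Edn1*, on the arterial and vascular tone lists, stood at 221 and 387 CPM (0.81, 0.56 to 1.07).

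On the adhesion and chemokine list, 5 of 20 measured genes were at least 2-fold higher and 2 at least 2-fold lower, against 3.96% and 2.68% of all genes, and the summed log2 ratio was 0.46 (0.38 to 0.54) beside -0.01 in capillary cells. *Mif*, which encodes macrophage migration inhibitory factor, had 177 and 490 UMIs, or 210 and 465 CPM (1.15, 0.89 to 1.40), and it was at 292 and 254 CPM in immune barcodes. *Cxcl2*, a neutrophil chemokine gene, had 21 and 80 UMIs (1.61), 28.8% of them in 1 barcode. *Cd74*, the MHC class II invariant chain, had 123 and 373 UMIs (1.28) with 34.0% in 1 barcode, and all 20 UMIs of *Cxcl9* came from 1 barcode. The leukocyte adhesion genes *Icam1* and *Vcam1* stood at 126 and 145 CPM (0.21, -0.16 to 0.58) and at 125 and 122 CPM (-0.03, -0.41 to 0.36). *Ccl2*, a monocyte chemokine gene, had 16 and 6 UMIs (-1.74, -3.38 to -0.31), and it was also lower in the capillary cells of that library (-1.71).

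On the angiogenic list, 8 of 22 measured genes were at least 2-fold higher and 0 lower, against 3.96% and 2.68% of all genes. The list took 0.251% and 0.433% of the members' UMIs (log2 ratio 0.79, 0.71 to 0.86). *Flt1*, which encodes VEGF receptor 1, had 394 and 1091 UMIs, or 468 and 1035 CPM (1.15, 0.98 to 1.32), and *Kdr*, VEGF receptor 2, stood at 277 and 455 CPM (0.72). *Nrp1*, a VEGF co-receptor gene, was at 258 and 439 CPM (0.77) and *Igfbp3* at 294 and 797 CPM (1.44, 1.23 to 1.65). The angiopoietin receptor gene *Tek* was at 0.46 and its relative *Tie1* at 0.16 (-0.15 to 0.48). Past 2-fold were also the ligand genes *Vegfa*, *Vegfb* (1.26), *Pgf* and *Apln* (1.08), the co-receptor gene *Nrp2* (1.07) and *Nid2* (1.68). The sum of the list in capillary cells was -0.14 on the log2 scale. With each member given equal weight, the list had 0.46 in members, *Flt1* 0.85 and *Igfbp3* 0.41. With members thinned to 1000 UMIs these were 0.37, 0.60 and 0.43. *Igfbp3* was seen in 50.6% of *Cre-* members and 49.5% of the others. *Vegfc*, which encodes the lymphatic growth factor VEGF-C, stood at 146 and 97.7 CPM (-0.58).

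Several capillary and glomerular genes were higher in the same members, beside the angiogenic genes. Of 6 measured capillary genes, 4 were at least 2-fold higher, against 3.96% of all genes. Among them were *Cd300lg* with 25 and 108 UMIs and *Gpihbp1*, which anchors lipoprotein lipase on capillaries, with 62 and 192 UMIs. Of 10 glomerular genes, 4 were 2-fold higher, against the same 3.96%. Among them were *Ehd3* with 100 and 390 UMIs and *Lpl*, which encodes lipoprotein lipase, with 8 and 96 UMIs. *Plat*, which encodes tissue plasminogen activator, was at 367 and 592 CPM (log2 ratio 0.69). Without members carrying *Ehd3*, *Gpihbp1* or *Cd300lg*, the log2 ratio of *Lpl* was 0.12 in place of 3.26, that of *Flt1* 0.96 in place of 1.15 and that of *Igfbp3* 1.08 in place of 1.44. The angiogenic list had 0.62 and the glomerular list 0.00 there. With each member given equal weight, the capillary list had 0.51 and the glomerular list 0.26. With members thinned to 1000 UMIs they had 0.51 and 0.01.

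**Figure D5:**
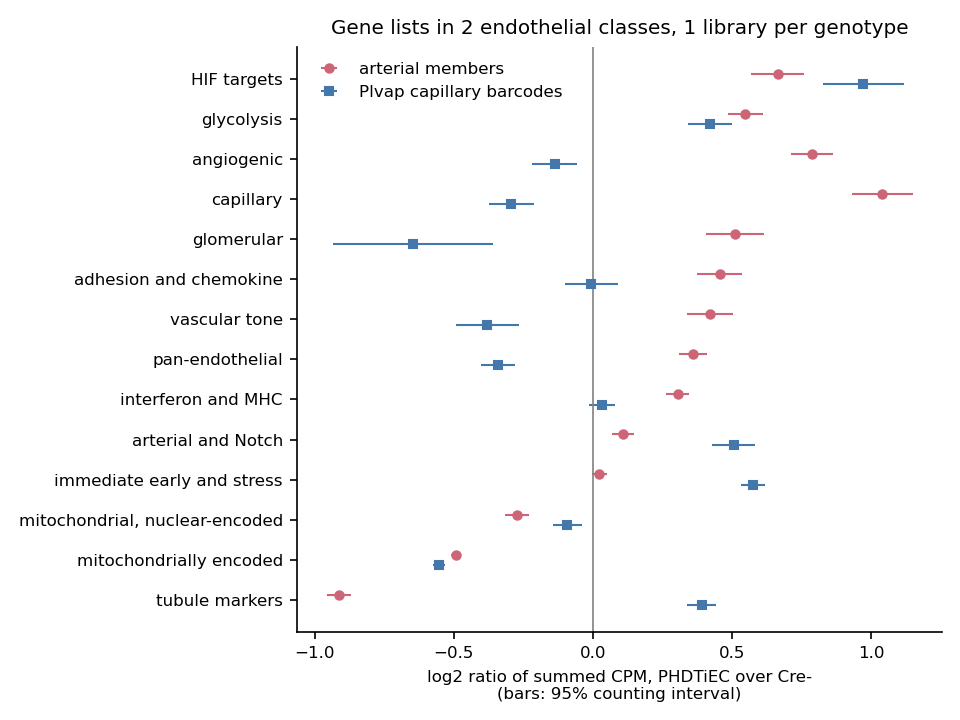
Each row is 1 gene list, and the points give the log2 ratio of its summed UMIs, library labelled *PHDTiEC* over *Cre-*, in the members and in the *Plvap* capillary cells, with 95% counting intervals. HIF targets (0.66 and 0.97) and glycolysis (0.55 and 0.42) lie to the right of 0 in both, and the capillary list (1.04 and -0.29) lies on opposite sides.

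Genes of vascular tone other than *Adm* stayed under 2-fold, with 1 of 19 measured genes at least 2-fold higher, against 3.96% of all genes. *Nos3*, endothelial nitric oxide synthase, stood at 132 and 138 CPM (log2 ratio 0.07), *Ece1*, which encodes the enzyme that activates endothelins, at 225 and 251 CPM (0.16), *Ace* at 52.2 and 51.2 CPM (-0.03) and the adrenomedullin receptor gene *Calcrl* at 225 and 263 CPM (0.22). *Cav1*, a caveolae gene, was at 165 and 318 CPM (0.95, 0.66 to 1.24) and *S1pr1*, a receptor gene for sphingosine-1-phosphate, at 195 and 353 CPM (0.86, 0.59 to 1.13). The shear-responsive factor genes *Klf2* and *Klf4* stood at 1803 and 1801 CPM and at 1321 and 1149 CPM. *Vwf*, which encodes von Willebrand factor, had 22 UMIs in 7 members and 120 UMIs in 20 members (2.12, 1.46 to 2.85), 33.3% of the latter in 1 barcode.

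Interferon and MHC genes had 6 of 22 at least 2-fold higher and 0 lower, against 3.96% and 2.68% of all genes, with a median log2 ratio of 0.46. Their summed log2 ratio was 0.30, and 0.16 without the deepest member of each library. There *Gbp2* and *Ifit2* fell to 0.30, while *Iigp1* had 1.12 and *Gbp4* 1.25. With at most 20000 UMIs, *H2-Aa* had 0.01 and *H2-Ab1* 0.46. Of the larger *Gbp2* count, 46.6% came from 1 barcode. *Iigp1*, an interferon-inducible GTPase gene, had 74 and 234 UMIs (1.34, 0.95 to 1.73), while the MHC class I genes *H2-K1* and *H2-D1* were at 0.37 and 0.08. On the matrix list, 3 of 23 genes were at least 2-fold higher and 3 lower, against the same 3.96% and 2.68%. *Hspg2*, which encodes the basement membrane proteoglycan perlecan, had 63 and 183 UMIs (1.21, 0.79 to 1.65) and *Sparcl1*, a matricellular protein gene, 202 and 566 UMIs (1.16, 0.93 to 1.40). The 3 lower ones were the fibroblast collagen genes *Col1a1*, *Col1a2* and *Col3a1*, with 65, 57 and 24 UMIs in *Cre-* members and 49.2%, 54.4% and 58.3% of these in 1 barcode. Immediate early genes, which respond to dissociation, summed to 2.54% and 2.58%.

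Mitochondrial transcripts took a smaller share in the members of the library labelled *PHDTiEC*, a direction that turned when free RNA was subtracted. The mitochondrially encoded genes took 5.93% and 4.22% of the members' UMIs (log2 ratio -0.49), beside -0.55 in capillary cells and -0.51 in immune barcodes, so the difference was of like size in all 3 classes. The 29 nuclear genes of the respiratory chain and citrate cycle had a median log2 ratio of -0.26. Of them, 1 was at least 2-fold higher and 1 lower, against 3.96% and 2.68% of all genes. With free RNA subtracted, the log2 ratio of the mitochondrially encoded list turned to 2.60 and that of the summed nuclear genes from -0.27 to 0.47. How far the scaling of that subtraction to the tubule markers sets these turns was not tested. *Cox4i2*, a HIF-responsive cytochrome oxidase subunit gene, had 3 and 19 UMIs (2.34, 0.57 to 4.74), and *Idh3a*, an isocitrate dehydrogenase subunit gene, 49 and 30 UMIs (-1.03). *Cox4i1*, the common form of the subunit, stood at 1195 and 1033 CPM (-0.21).

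Among genes with at least 50 UMIs, seen in at least 10 members and with at most 25% of their UMIs in 1 barcode, *Egln3*, *Ankrd37*, *Lpl*, *AA467197*, *Adm*, *Slc16a3* and *Bnip3* had the largest log2 ratios toward the library labelled *PHDTiEC*. *Ndufa4l2* and *Pgf*, with larger ratios, did not meet these limits. *AA467197*, also known as *Nmes1*, had 8 and 96 UMIs (log2 ratio 3.26, 2.23 to 4.51), 72.3 and 68.7 CPM in capillary cells and 255 and 187 CPM in immune barcodes. *F8*, which encodes coagulation factor VIII, had 13 and 57 UMIs (1.81), and *Selenbp1*, a selenium-binding protein gene, 12 and 51 UMIs (1.76). At the lower end, *Tppp3*, which encodes a tubulin polymerization-promoting protein, had 69 UMIs in 16 members and 15 UMIs in 9 members (-2.53, -3.44 to -1.71). The smooth muscle actin gene *Acta2* had 99 and 35 UMIs (-1.82), beside the mural markers described above. *Mme*, the gene of neprilysin, had 44 and 15 UMIs (-1.88), and its log2 ratio turned to 0.65 without the members over 1% tubule and immune markers. *Lrg1*, a regulator gene of TGF-β signalling in endothelium, had 67 and 30 UMIs (-1.48, -2.16 to -0.84), and it was also lower in capillary cells (-0.68).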

How the data were processed

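Single-cell 3′ libraries (Chromium v3.1) were measured in 2 samples. The authors aligned reads to mm10 with Cell Ranger, and the matrix headers name Cell Ranger 4. The deposited values are raw UMI counts per gene and barcode, unfiltered and not normalized, for 32285 genes and 6794880 listed barcodes per library. Barcodes with 500 to 100000 UMIs, at least 200 genes, at most 50% mitochondrial UMIs and a log10 gene to log10 UMI ratio of at least 0.8 were kept (8468 and 9233), with medians of 7414.5 and 7815 UMIs. No doublet caller was run; 11 and 12 members exceeded 20000 UMIs. Genotypes followed the labels.

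UMIs were summed over members per library and divided by the members' total. Differences are log2 ratios with exact Clopper-Pearson 95% intervals on the split of counts; a gene at 0 was bounded with 3 counts. Genes with at least 20 UMIs were measured, and "called" means 2-fold. Barcodes under 100 UMIs, which hold free RNA, had 3.55% and 4.15% of all UMIs. The members and gene lists were chosen with earlier results of these data known. Named genes were the floxed genes, list genes and, by rule, the 12 highest and 12 lowest log2 ratios with at least 50 UMIs, at least 10 members and at most 25% of UMIs in 1 barcode, between libraries, and likewise the 12 at each end for members over capillary cells with at least 20 UMIs. Promoters are RefSeq GRCm38.p6; 32158 genes matched GENCODE coordinates. The computations were checked on simulated data and used Python 3.11.15, SciPy 1.17.1, pandas 2.3.3, R 4.3.3 and edgeR 4.0.16 (TMM and median-ratio scaling only). The values of 1 gene of the HIF target list are not reported here; list counts and sums include it.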

Additional observations from a re-analysis of the deposited data

Results flagged for a closer look

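For 7 gene lists the log2 ratio of summed UMIs, library labelled *PHDTiEC* over *Cre-*, had opposite signs in the arterial members and in the *Plvap* capillary cells, with a counting interval clear of 0 in both and 1 library per genotype. The difference between the classes was not tested. The pan-endothelial list had 0.36 in members and -0.34 in capillary cells, with *Emcn* at 468 and 799 CPM in members and *Cldn5* the other way at 794 and 559 CPM. The capillary list had 1.04 and -0.29, and the glomerular list 0.51 and -0.65. The angiogenic list had 0.79 and -0.14, with *Kdr* at 0.72 and -0.14. The vascular tone list had 0.42 and -0.38, and the mesenchymal list 0.09 and -0.11. Tubule markers had -0.91 in members and 0.39 in capillary cells. The vasa recta (-0.0077 and 0.23), adhesion and chemokine (0.46 and -0.0051) and matrix (0.24 and -0.049) lists also had opposite signs, with an interval that held 0 in 1 of the classes.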

How the results depend on the processing

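No paired analysis was possible because the labels give no replicate numbers and each genotype has 1 library. Over 15 alternatives, the log2 ratio was 0.47 to 1.02 for HIF targets, 0.30 to 2.21 for glycolysis, 0.20 to 0.49 for adhesion and chemokines, 0.80 to 1.48 for *Egln1* and 0.94 to 4.85 for *Egln3*, above 0 in each. The arterial and Notch list lay between -0.17 and 0.32 and changed sign. Depth limits single genes: most named genes had under 100 UMIs in the *Cre-* members, and thinning left few counts. The cause of a change was not tested where none is given, and "moved" is judged against counting error.

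The free RNA subtraction took all tubule marker UMIs of the members as free RNA, so the few barcodes rich in them raised its size. It removed 57.6% and 42.7% of the members' UMIs, which is not a measured share of free RNA. With it, the log2 ratio was 0.99 for HIF targets, 2.21 for glycolysis and 0.20 for adhesion and chemokines. It was 0.72 for *Egln2* and -0.17 for the arterial and Notch list. In the same setting the mitochondrially encoded list turned to 2.60, nuclear mitochondrial genes to 0.47, cell cycle to -0.015, matrix to -0.030, mesenchymal to -0.17, pan-endothelial to -0.065, shear and coagulation to -0.18 and *Cxcl9* to -0.20. It gave 799 genes at least 2-fold higher and 398 lower, in place of 351 and 238.

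Without members over 1% tubule and immune markers, the values were 1.02 for HIF targets, 1.23 for glycolysis, 0.30 for adhesion and chemokines and 0.026 for arterial genes, with 150 genes lower. Cell cycle turned to -0.049, mesenchymal to -0.089, shear and coagulation to -0.071, tubule markers to 0.12, *Car12* to 0.91 and *Mme* to 0.65. With at most 20000 UMIs, HIF targets had 0.89, glycolysis 0.77, arterial genes 0.31 and *Cd74* -0.28. With *Plvap* of 0, HIF targets had 0.77 and arterial genes 0.32, and members were 0.732% and 0.801% of kept barcodes. With at least 2 of *Sox17*, *Gja4* and *Gja5* seen, HIF targets had 0.55, glycolysis 0.41, adhesion 0.23, arterial genes 0.028 and mesenchymal -0.047, and members were 0.661% and 0.834%. With at least 3 UMIs of these genes, adhesion had 0.34, arterial genes 0.018, mesenchymal -0.059 and shear and coagulation -0.0097. Of endothelial barcodes, members were 16.2% and 14.7%.

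The mean over members gave 0.75 for glycolysis, 0.31 for arterial genes, -0.94 for immune markers, -0.59 for *Nid2*, -0.90 for *Nrp2*, and 723 genes higher and 542 lower. Thinned to 1000 UMIs, *Egln2* had 1.30, *Egln3* 0.94, glycolysis 0.72, arterial genes 0.26 and immune markers -0.93, with 70 genes higher and 53 lower. *Cd74*, *Fscn1*, *Nrp2* and *Slc16a3* had equal counts in both libraries, which gives -0.28 because 87 and 106 members were thinned. On few counts, *F8* turned to -0.61, *H2-Ab1* to -0.45, *Lrg1* and *Pcolce* to 0.30 and *Slc25a23* to 0.72. A minimum of 50 UMIs per gene gave 129 higher and 62 lower, and no minimum 1029 and 1119.

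A pair of alternatives was chosen after seeing the data. Without members carrying *Ehd3*, *Gpihbp1* or *Cd300lg*, HIF targets had 0.47, glycolysis 0.30, arterial genes 0.32, immune markers -0.85 and *Nid2* -0.46. Without the deepest member of each library, adhesion and chemokines had 0.33. The share of higher among 2-fold genes was 59.6%, and 72.7%, 68.2%, 67.6%, 66.8% and 47.0% without members over 1% other markers, with at least 3 arterial UMIs, without the deepest members, with free RNA subtracted and without *Ehd3*, *Gpihbp1* or *Cd300lg*.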

Other observations

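Other genes of the lists gave values not described above. *F3*, which encodes tissue factor, the starter of coagulation, had 6 and 27 UMIs in members (log2 ratio 1.85) and was higher by 3.72 in the capillary cells of the library labelled *PHDTiEC*. *Fn1*, the fibronectin gene, stood at 115 and 64.5 CPM in members (-0.84) and was higher by 3.14 in capillary cells. *Clu*, which encodes the secreted chaperone clusterin, was at 2156 and 1986 CPM in members and at 397 and 2891 CPM in capillary cells. The cell cycle list took 0.0966% and 0.110% of the members' UMIs, and the vein and lymphatic list 75 and 201 UMIs, of which *Vwf* supplied 22 and 120.

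The immediate early genes, which had nearly equal sums in members, were higher by 0.58 in the capillary cells of the library labelled *PHDTiEC*, where they took 1.25% and 1.86% of UMIs.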
